A study of Mus musculus with 9 samples.

Results

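The immediate early transcription factors Fos, Fosb, Jun, Junb, Egr1, Egr2, Egr3, Atf3, Ier2 and Nr4a1 were followed in the aorta of mice given angiotensin II (Ang II), the pressor hormone whose infusion serves as a mouse model of abdominal aortic aneurysm. The genes were found by their Entrez identifiers, and all 10 of them were among the 18830 genes of the deposited files. All mice were ApoE knock out, a genotype prone to atherosclerosis, so the deletion was shared by every group. The Ang II mice carried an osmotic pump that delivered Ang II at 1000 ng/kg/min, and their suprarenal abdominal aorta was sampled after 14 days (3 libraries) or 28 days (3 libraries). The remaining 3 libraries came from a sham control, described in the design text as saline, whose day of harvest is not given. Sequencing was of bulk mRNA from whole tissue. Totals ran from 9609690 to 14923936 expected counts per library. Levels are in CPM, counts scaled to a common library total by TMM factors, and fold changes are on the log2 scale with their SE.

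Immediate early genes are transcribed within minutes of a stimulus, without new protein synthesis, and their transcripts are short-lived. Many are reached by ERK and related kinases through serum response factor (SRF), its ELK partners and CREB, and Ang II acting on its type 1 receptor in vascular smooth muscle is a classical stimulus of this kind. FOS and JUN proteins pair to form AP-1, EGR proteins are zinc finger factors, and NR4A1 is an orphan nuclear receptor. In arteries these factors are known for their response to injury, stretch and inflammatory signals. The pump was in place for weeks here, so the libraries show the level at harvest and not an acute response.

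Junb and Egr2 were above every sham library in each Ang II library at both times, and Egr1 was so at 14 days. That makes 3 of 10 genes at 14 days and 2 of 10 at 28 days, where 12.6% and 12.2% of all genes tested lay above sham without overlap. None of the 10 lay below sham without overlap, where 13.5% and 9.46% of all genes did. At 14 days Junb averaged 147 ± 94.1 CPM, against 39 ± 11 CPM in sham (SD, n = 3 each), and Egr2 averaged 7.35 ± 2.83 CPM, against 2.85 ± 0.843 CPM. Fosb lay lower than sham at 28 days, with 4.27 ± 1.04 CPM against 13.4 ± 8.48 CPM, although the libraries overlapped. The libraries of Fos, Jun, Egr3, Atf3, Ier2 and Nr4a1 overlapped sham at both times. None of the 10 genes passed an adjusted p of 0.05 in edgeR's quasi-likelihood test in any of the 3 comparisons, where 0% of the 14741 genes tested passed. At 14 days 3 of 10 had an unadjusted p under 0.05 (Junb, Egr2 and Ier2, all higher), where 23.5% of all genes did (13.1% higher and 10.4% lower). At 28 days 2 of 10 did (Egr2 higher and Fosb lower), where 13.9% of all genes did (7.96% higher and 5.89% lower).

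**Figure D1:**
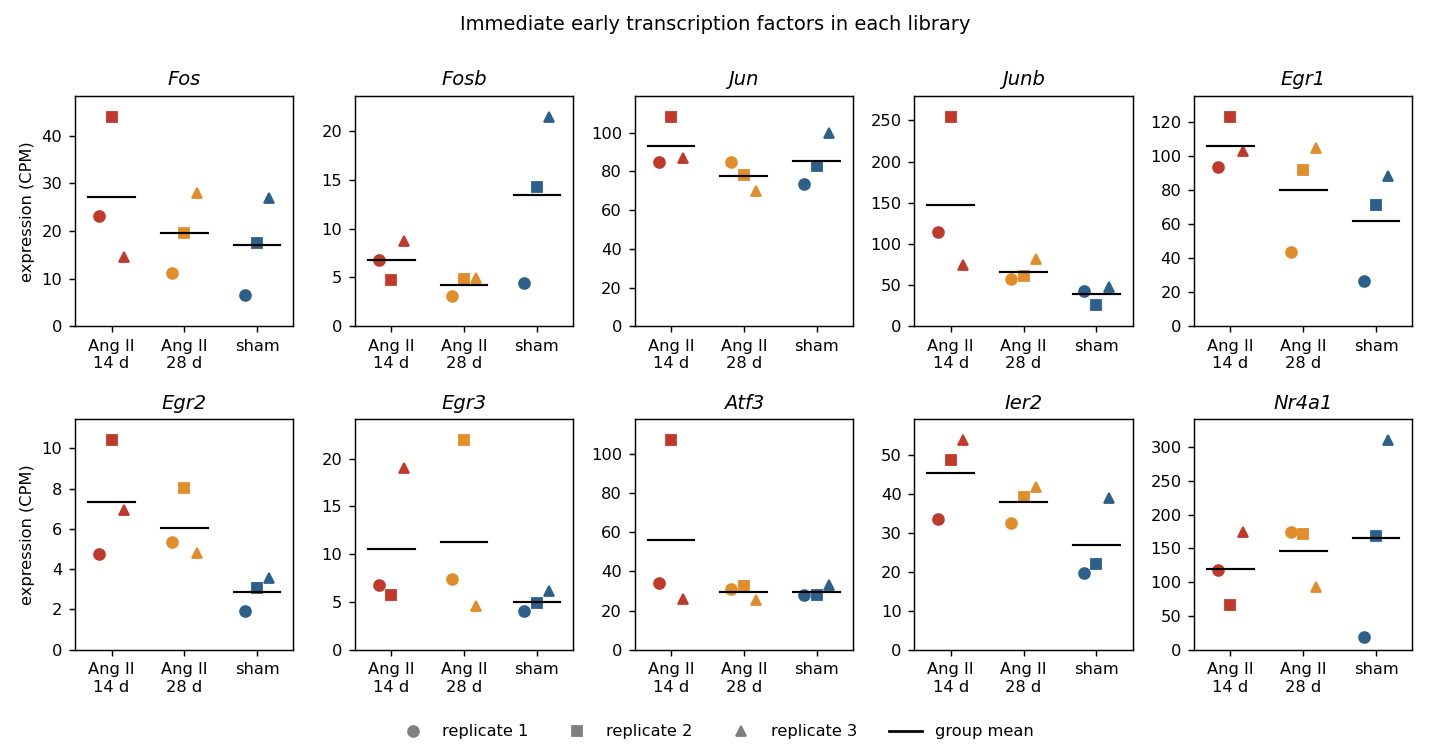
Expression of each of the 10 genes in each library (CPM, linear axis from 0). Points are the 3 libraries of each group and bars are group means. Junb and Egr2 are above all sham libraries in every Ang II library, and sham replicate 1 is the lowest sham library for 9 genes.

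DESeq2 on the same counts called Junb and Egr2 at 14 days (adjusted p = 0.0013 and 0.0286), with 13.4% of all genes called, and none of the 10 at 28 days, where it called 6.58%. With 14-day replicate 2 left out, DESeq2 still called Junb (adjusted p = 0.00867) but not Egr2 (adjusted p = 0.226). The median log2 fold change of the 10 genes was 0.76 at 14 days and 0.28 at 28 days, while over all genes tested it was -0.07 and -0.08. Single libraries moved these medians. At 14 days the median was 0.41 without 14-day replicate 2, 0.49 without sham replicate 1 and 1.17 without sham replicate 3. At 28 days it was 0.53 without 28-day replicate 1, 0.13 without 28-day replicate 3, -0.02 without sham replicate 1 and 0.75 without sham replicate 3. Of the 10, 8 had a positive value at 14 days and 6 at 28 days, where 45.2% and 40.7% of all genes did. Both comparisons share the sham libraries, so they are not independent of each other.

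The FOS proteins bind DNA only with a partner such as JUN. Fos (Entrez 14281, GRCm38.p6 chromosome 12, 85473890 to 85477274) had 23.1, 43.9 and 14.5 CPM in 14-day replicates 1 to 3, 11.1, 19.6 and 27.9 CPM in 28-day replicates 1 to 3, and 6.5, 17.5 and 27 CPM in sham replicates 1 to 3. Its groups overlapped at both times, and the values spanned 4.15-fold within sham alone. Against sham the log2 fold change was 0.68 ± 0.60 at 14 days and 0.20 ± 0.60 at 28 days (edgeR adjusted p = 0.539 and 0.947). Without 14-day replicate 2, the value at 14 days was 0.15.

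Fosb encodes a FOS relative whose truncated splice form, known as deltaFosB, is long-lived in neurons (Entrez 14282, chromosome 7, 19302696 to 19310118). It had 6.8, 4.75 and 8.69 CPM in the 14-day libraries, 3.06, 4.8 and 4.94 CPM in the 28-day libraries, and 4.48, 14.3 and 21.4 CPM in the sham libraries. Sham replicates 2 and 3 were above all 6 Ang II libraries, while sham replicate 1 lay among them. The log2 fold change was -0.99 ± 0.53 at 14 days (edgeR adjusted p = 0.302) and -1.64 ± 0.54 at 28 days (unadjusted p = 0.0161, adjusted p = 0.248). Leaving out any 1 library kept the 28-day value between -2.06 and -1.09. The gene level counts do not separate the splice forms.

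Within a library, the ratio of Fosb to Fos counts does not depend on how libraries are scaled. It was 0.295, 0.108 and 0.601 in the 14-day libraries, 0.277, 0.245 and 0.177 in the 28-day libraries, and 0.689, 0.82 and 0.792 in the sham libraries. All 6 Ang II libraries were thus below all 3 sham libraries, including sham replicate 1, in which both genes were low. This ratio was picked after its values were seen and was not tested. The ratios of Egr2 to Egr1 and of Egr3 to Egr1 were computed as well, and both overlapped sham at both times. Egr2 over Egr1 was 0.051 to 0.0845 at 14 days, 0.0457 to 0.122 at 28 days and 0.0403 to 0.0714 in sham.

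The JUN genes supply the other part of AP-1. JUN itself is a strong activator, whereas JUNB is a weaker one that can restrain JUN. Jun (Entrez 16476, chromosome 4, 95049036 to 95052222) was the steadiest of the 10, with 85, 108 and 86.8 CPM at 14 days, 84.8, 78.3 and 69.9 CPM at 28 days, and 73.4, 82.9 and 100 CPM in sham. The pooled SD of its log2 CPM within groups was 0.188, smaller than in all but 13.8% of the genes tested. Its log2 fold change was 0.12 ± 0.17 at 14 days and -0.14 ± 0.17 at 28 days (edgeR adjusted p = 0.704 and 0.843).

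Junb (Entrez 16477, chromosome 8, 84976909 to 84978748) had 115, 254 and 74.2 CPM in the 14-day libraries, 57.1, 61.4 and 81.4 CPM in the 28-day libraries, and 42.6, 26.5 and 47.7 CPM in the sham libraries. No Ang II library reached down to the highest sham library. At 14 days the log2 fold change was 1.92 ± 0.46, a 3.79-fold higher level (edgeR unadjusted p = 0.00293, adjusted p = 0.117), and without replicate 2 of that group it was 1.29 (adjusted p = 0.237). At 28 days it was 0.78 ± 0.44 (unadjusted p = 0.119, adjusted p = 0.529).

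**Figure D2:**
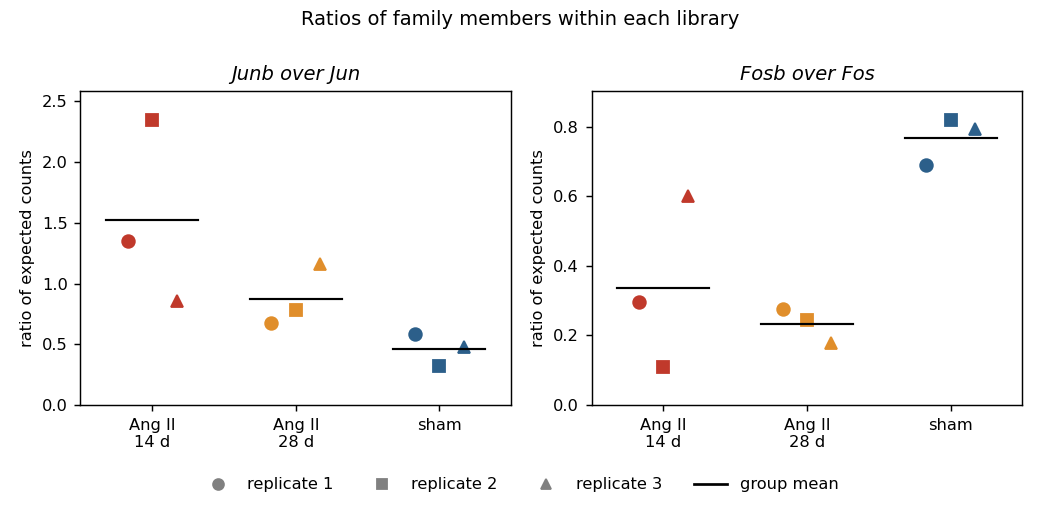
Ratio of expected counts of Junb over Jun (left) and Fosb over Fos (right) in each library, on linear axes from 0, with bars at the group means. Junb over Jun is at or above 0.674 in the Ang II libraries and at or below 0.581 in sham, and Fosb over Fos is at or below 0.601 in the Ang II libraries and at or above 0.689 in sham.

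The ratio of Junb to Jun counts was 1.35, 2.35 and 0.855 at 14 days, 0.674, 0.785 and 1.16 at 28 days, and 0.581, 0.32 and 0.476 in sham. Jun counts exceeded Junb counts in all 3 sham libraries, and Junb counts exceeded Jun counts in 14-day replicates 1 and 2 and 28-day replicate 3. It too was picked after its values were seen and was not tested. Scaled by exonic length (union of the annotated exons), Junb had the highest level of the 10 genes at 14 days, with 64.1 ± 40.9 CPM per kb. At 28 days it came next after Nr4a1 (29 ± 5.63 CPM per kb), and in sham it came after Nr4a1, Jun and Ier2 (16.9 ± 4.8). Nr4a1 was first in the other groups, with 41.7 ± 13.3 CPM per kb at 28 days and 47.3 ± 41.4 in sham. In each group the first and the next gene in this order differed by less than the larger of their SDs. The lowest levels per kb were those of Fosb at 14 and 28 days (1.08 ± 0.315 and 0.684 ± 0.167) and of Egr2 in sham (0.839 ± 0.248).

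ATF3 is a stress-induced factor of the ATF family that can pair with JUN proteins. Atf3 (Entrez 11910, chromosome 1, 191170296 to 191183333) had 34.3, 107 and 25.9 CPM at 14 days, 31.1, 32.8 and 25.2 CPM at 28 days, and 28, 28 and 33.1 CPM in sham. One library, 14-day replicate 2, stood above the other 8, which lay between 25.2 and 34.3 CPM. For 14 days against sham the value was 0.91 ± 0.48 (edgeR adjusted p = 0.296), and 0.04 without that library. At 28 days it was 0.00 ± 0.48 (adjusted p = 0.999).

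EGR1, EGR2 and EGR3 bind the same GC-rich element. In blood vessels EGR1 is known for its response to injury and stretch, while EGR2 and EGR3 are best known from nerve, muscle spindle and lymphocyte biology. Egr1 (Entrez 13653, chromosome 18, 34861207 to 34864956) was the most abundant of them, with 93.4, 123 and 103 CPM at 14 days, 43.8, 91.7 and 105 CPM at 28 days, and 26.9, 71.5 and 88.4 CPM in sham. The 14-day libraries lay just above the highest sham library. The log2 fold change was 0.77 ± 0.46 at 14 days (edgeR adjusted p = 0.346), or 0.41 without sham replicate 1. At 28 days it was 0.36 ± 0.46 (adjusted p = 0.846).

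Egr2 (Entrez 13654, chromosome 10, 67534469 to 67542188) was a low gene, with 4.76, 10.4 and 6.92 CPM at 14 days, 5.36, 8.03 and 4.78 CPM at 28 days, and 1.92, 3.08 and 3.56 CPM in sham. Every Ang II library was above every sham library. Its log2 fold change was 1.36 ± 0.41 at 14 days, a 2.57-fold higher level (edgeR unadjusted p = 0.0102, adjusted p = 0.129), and 1.08 ± 0.41 at 28 days (unadjusted p = 0.0286, adjusted p = 0.29). With each of the 9 libraries left out in turn, these values stayed between 1.05 and 1.6 and between 0.83 and 1.32.

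Egr3 (Entrez 13655, chromosome 14, 70077317 to 70082613) had 6.73, 5.69 and 19 CPM at 14 days, 7.44, 21.9 and 4.56 CPM at 28 days, and 4.05, 4.93 and 6.14 CPM in sham. A single library of each Ang II group was high and the rest were near the sham range. Relative to sham the log2 fold change was 1.05 ± 0.67 at 14 days and 1.16 ± 0.67 at 28 days (edgeR adjusted p = 0.378 and 0.531). It was 0.30 without 14-day replicate 3 and 0.25 without 28-day replicate 2. The same 2 libraries had the highest sums of the 6 B and T cell markers, at 1179 and 762 CPM, while the other 4 Ang II libraries had 29.7 to 115 CPM and sham 6.37 to 16.2 CPM. Whether lymphocyte transcripts have a part in the Egr3 values was not tested.

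Nr4a1 (Entrez 15370, chromosome 15, 101253902 to 101274795), whose product binds DNA without a known ligand, varied most. It had 118, 66.6 and 175 CPM at 14 days, 174, 172 and 92.3 CPM at 28 days, and 19.1, 169 and 310 CPM in sham. Sham held both the lowest and the highest of the 9 libraries, 16.2-fold apart. The log2 fold change was -0.47 ± 0.81 at 14 days and -0.18 ± 0.81 at 28 days (edgeR adjusted p = 0.759 and 0.958), and at 14 days it was -1 without sham replicate 1 and 0.40 without sham replicate 3.

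Ier2 encodes a small nuclear protein that is induced by growth factors (Entrez 15936, chromosome 8, 84661331 to 84662852). It had 33.4, 48.6 and 53.7 CPM at 14 days, 32.6, 39.1 and 41.8 CPM at 28 days, and 19.6, 22 and 38.8 CPM in sham. Sham replicate 3 lay within the range of both Ang II groups, and the other 2 sham libraries lay below both ranges. The log2 fold change was 0.75 ± 0.29 at 14 days (edgeR unadjusted p = 0.0329, adjusted p = 0.178) and 0.50 ± 0.29 at 28 days (adjusted p = 0.545).

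**Figure D3:**
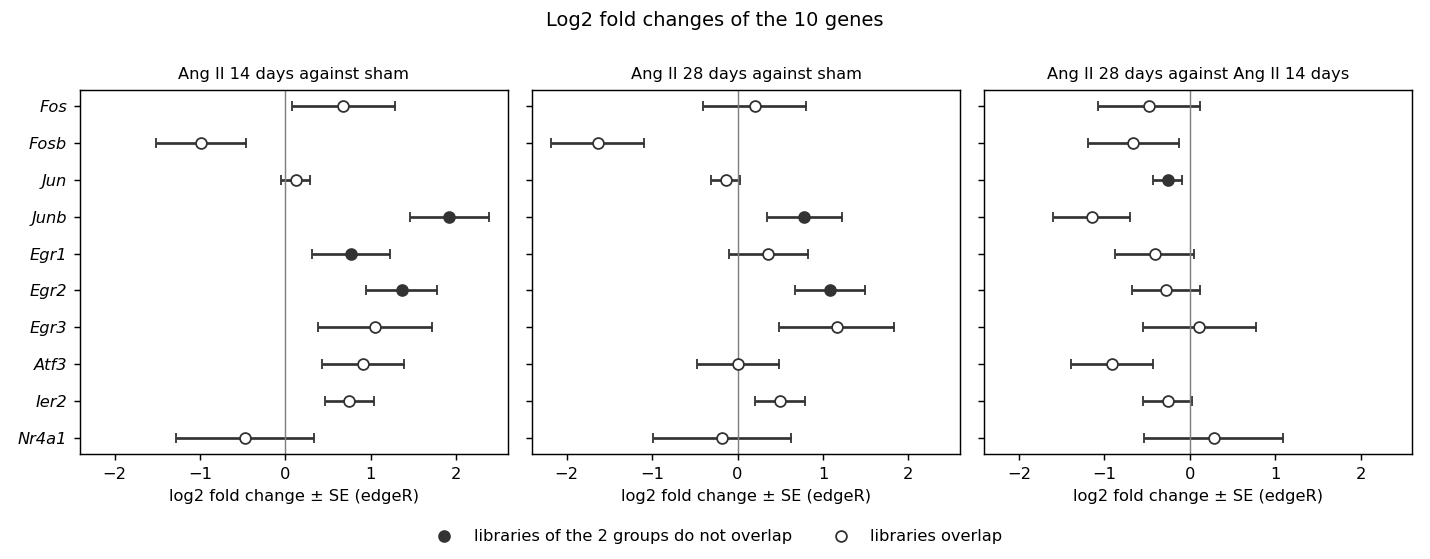
Log2 fold change of the 10 genes in the 3 comparisons, with bars of 1 SE from edgeR. Filled points are genes whose libraries do not overlap between the groups. Junb (1.92) and Egr2 (1.36) have the highest values at 14 days, and Fosb at 28 days (-1.64) the lowest.

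Between the times, 28 days was set against 14 days directly. The median log2 fold change of the 10 genes was -0.34, and -0.05 over all genes tested, with 2 of 10 above 0 where 44.8% of all genes were. That median was -0.2 without 28-day replicate 1, -0.53 without 28-day replicate 2, -0.51 without 14-day replicate 1 and -0.16 without 14-day replicate 2. It was -0.74 without 28-day replicate 2, 14-day replicate 1 and sham replicate 2, the 3 libraries richest in nerve markers. Junb had the lowest value, -1.15 ± 0.45 (edgeR unadjusted p = 0.0331, adjusted p = 0.77), and was the only one of the 10 at an unadjusted p under 0.05, against 6.13% of all genes (3.86% higher and 2.27% lower). DESeq2 called none of the 10 and 0.800% of all genes. Its libraries overlapped, since 28-day replicate 3 was above 14-day replicate 3. Jun, at -0.26 ± 0.17 (adjusted p = 0.774), was the only one whose libraries did not overlap, where 4.35% of all genes were higher and 5.71% lower without overlap. Atf3 had -0.91 ± 0.48, which came to -0.02 without 14-day replicate 2.

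Promoter sequences are shown for the pair of genes that separated Ang II from sham at both times and for Fosb and Fos, whose ratio did. The ratio of Junb to Jun did so too, but the Jun window, which held no match, is not shown. RefSeq promoters (GRCm38.p6, 250 bases before to 50 after a transcription start) were taken for 7 of the 10 genes, in 11 windows. No window of Egr1, Egr3 or Ier2 was searched, so whether they hold these elements was not tested. Windows were searched on both strands for the CArG box bound by SRF, the cyclic AMP response element (CRE) TGACGTCA, its core TGACG, which the full element contains, and the AP-1 site TGANTCA. Capitals mark the matches, where CGTCA is the CRE core on the other strand.
Egr2, chr10:67537619-67537918, plus strand: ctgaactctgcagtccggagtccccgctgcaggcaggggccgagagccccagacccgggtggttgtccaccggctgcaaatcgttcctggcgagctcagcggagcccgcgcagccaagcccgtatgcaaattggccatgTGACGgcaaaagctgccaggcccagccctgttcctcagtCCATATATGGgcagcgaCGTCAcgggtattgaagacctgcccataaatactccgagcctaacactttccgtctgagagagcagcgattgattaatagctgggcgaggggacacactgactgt
Junb, chr8:84978699-84978998, minus strand: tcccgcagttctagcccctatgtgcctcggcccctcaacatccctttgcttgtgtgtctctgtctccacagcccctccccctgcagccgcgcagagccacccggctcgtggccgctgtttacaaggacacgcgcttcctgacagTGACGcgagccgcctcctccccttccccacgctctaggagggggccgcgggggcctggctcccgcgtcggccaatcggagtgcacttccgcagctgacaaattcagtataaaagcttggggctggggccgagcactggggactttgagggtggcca
Fosb, chr7:19309996-19310295, minus strand: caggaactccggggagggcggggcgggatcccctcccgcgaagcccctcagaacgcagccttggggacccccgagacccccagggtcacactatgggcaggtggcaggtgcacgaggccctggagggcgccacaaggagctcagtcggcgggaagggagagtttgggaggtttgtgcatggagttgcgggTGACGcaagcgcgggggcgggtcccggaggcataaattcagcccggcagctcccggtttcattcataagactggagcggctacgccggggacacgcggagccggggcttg
Fos, chr12:85473640-85473939, plus strand: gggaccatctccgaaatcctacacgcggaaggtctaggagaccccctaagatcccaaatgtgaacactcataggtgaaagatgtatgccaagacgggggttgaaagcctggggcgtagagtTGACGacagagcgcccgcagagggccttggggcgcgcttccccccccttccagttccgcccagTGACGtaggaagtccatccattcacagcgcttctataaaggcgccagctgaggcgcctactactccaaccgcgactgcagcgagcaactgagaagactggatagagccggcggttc
In this Egr2 window the CArG box begins 72 bases before the start, between CRE cores that begin 111 and 55 bases before it. Junb and Fosb each hold 1 CRE core, 106 and 60 bases before the start, and Fos holds 2. Across the 7 genes, the CRE core was in at least 1 window of 6 (not Jun), the CArG box was in Egr2, and the full element and the AP-1 site were in none. Of the 32851 promoters of the same length, 20.8% held the CRE core, 1.63% the CArG box, 1.79% the full element and 7.81% the AP-1 site. These shares are of single windows, whereas a gene with several windows, such as Egr2, was counted by any of them. These are matches of letters in short windows and show no binding. Elements more than 250 bases before a start, of Fos or of any other gene, were not searched for.

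The libraries differed in the 10 genes as a group as well as one by one. Sham replicate 1 was the lowest of all 9 libraries for 6 genes (Fos, Egr1, Egr2, Egr3, Ier2 and Nr4a1), and sham replicate 3 was the highest sham library for all 10. In contrast, 14-day replicate 2 was the highest of the 9 for Fos, Jun, Junb, Egr1, Egr2 and Atf3, and the lowest of its group for Fosb, Egr3 and Nr4a1. The mean log2 CPM of the 10 genes was 4.93, 5.38 and 5.14 at 14 days, 4.57, 5.06 and 4.75 at 28 days, and 3.78, 4.6 and 5.1 in sham. On this mean, sham replicates 2 and 3 lay within the Ang II range and sham replicate 1 below it. The pooled SD of log2 CPM within groups had a median of 0.653 over the 10 genes and of 0.386 over all genes tested, with Nr4a1 (1.318), Egr3 (0.864) and Fos (0.849) the most variable.

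**Figure D4:**
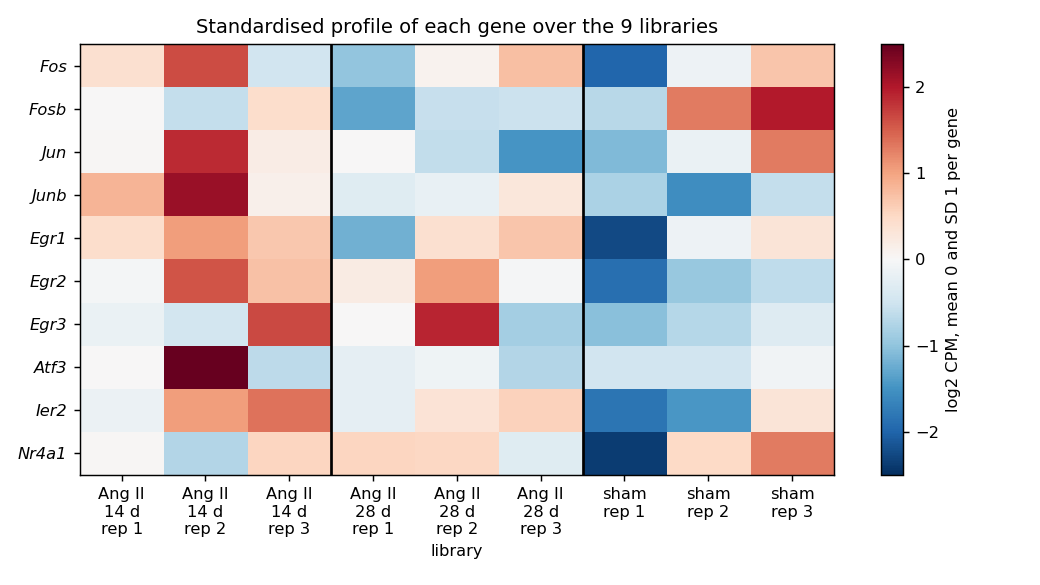
Standardised log2 CPM of each gene in each library (mean 0 and SD 1 over the 9 libraries for each gene; red is high, blue is low). Sham replicate 1 is low in nearly every row, and 14-day replicate 2 holds the highest value in 6 rows.

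Markers of other cells moved between these libraries too. The 6 macrophage and leukocyte markers, such as Lyz2, summed to 1862, 10654 and 2235 CPM at 14 days, 1724, 2462 and 2804 CPM at 28 days, and 1293, 245 and 573 CPM in sham. Their sum was thus highest in 14-day replicate 2, the library highest for Junb, Egr2 and Atf3, and lowest in sham replicate 2, the library lowest for Junb. Ptprc alone was higher in 14-day replicate 3 (368 CPM) than in 14-day replicate 2 (191 CPM). Within sham the sum was highest in replicate 1, where Lyz2 alone had 1009 CPM. That replicate was the lowest library for Egr2 and 5 other genes of the 10. Adgre1, Csf1r and Itgam were instead highest in sham replicate 3 (22.7, 83.6 and 21.5 CPM). The 6 smooth muscle markers summed to 3511 to 16055 CPM at 14 days, 1957 to 5998 CPM at 28 days, and 9250 to 27940 CPM in sham, with the lowest 14-day value in replicate 2. All 6 were detected in every library. Brown fat and adipocyte markers summed to 6661, 2954 and 8237 CPM at 14 days, 15561, 7190 and 14143 CPM at 28 days, and 13873, 10496 and 18032 CPM in sham. On this sum the 14-day libraries were all below sham. Of the 6 markers, 4 were also below sham without overlap at 14 days, while Adipoq and Plin1 overlapped. Fibroblast markers reached 15485 CPM in 14-day replicate 2, and had 4093 to 7997 CPM in the other Ang II libraries and 2564 to 4595 CPM in sham. The part of these cells in the values of the 10 genes was not tested, and in bulk tissue fewer cells of a type and less RNA per cell cannot be told apart.

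The sample titles say muscle where the tissue label says aorta. Acta2, a smooth muscle actin, had 957 to 13376 CPM over the 9 libraries. Skeletal muscle markers summed to 12657, 4203 and 85.1 CPM in the 28-day libraries and to 3.39 to 42.9 CPM elsewhere, and nerve and ganglion markers were between 25.1 and 4850 CPM. Apoe was detected in all 9 libraries, at 160 to 648 CPM at 14 days, 23 to 270 CPM at 28 days and 22.5 to 87.5 CPM in sham. The counts do not show which part of the gene was read. Leaving out the 3 libraries richest in nerve markers (14-day replicate 1, 28-day replicate 2 and sham replicate 2) gave log2 fold changes of 1.91 for Junb and 1.68 for Egr2 at 14 days, and of -1.75 for Fosb at 28 days. Leaving out 28-day replicate 1 and sham replicate 1, the libraries with the smallest totals, gave 2, 1.16 and -1.86.

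Relatives of the AP-1 subunits were mixed, with a median log2 fold change of 0.31 at 14 days and 0.09 at 28 days over the 9 of 10 tested. None passed the edgeR threshold, and at an unadjusted p under 0.05 there were 3 higher and 0 lower at 14 days and 2 higher and 1 lower at 28 days. For this list and the later ones, the shares over all genes tested were 13.1% higher and 10.4% lower at 14 days. At 28 days they were 7.96% and 5.89%. Batf, an AP-1 partner of lymphoid and myeloid cells, averaged 7.8 ± 4.96 CPM at 14 days, 5.13 ± 1.34 CPM at 28 days and 1.03 ± 0.214 CPM in sham, without overlap. Jund, the third JUN protein, which is expressed more constantly, had 132 ± 3.79 CPM at 28 days against 184 ± 22.1 CPM in sham, also without overlap (log2 -0.48 ± 0.15, edgeR adjusted p = 0.241, DESeq2 adjusted p = 0.00822). At 14 days it had 181 ± 14.1 CPM. Atf4, the abundant stress factor, had log2 fold changes of 0.01 ± 0.19 and 0.07 ± 0.19, and Fosl2, a FOS relative, had 0.31 ± 0.40 and -0.14 ± 0.40. Fosl1 was too low to test.

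The partners of the EGR and NR4A factors differed less. Nab2, a co-repressor of EGR proteins that is itself an EGR target, had 35.5, 53.1 and 39.7 CPM at 14 days, against 31.2, 19.3 and 30.5 CPM in sham, with no overlap (log2 0.66 ± 0.26, edgeR unadjusted p = 0.0315, adjusted p = 0.175). At 28 days its value was 0.24 ± 0.26. Nab1, the related co-repressor, had -0.26 ± 0.19 and -0.33 ± 0.19, and the NR4A1 relatives Nr4a2 and Nr4a3 overlapped sham at both times. Over the 4 of 5 tested, Egr4 being too low, the median was 0.05 at 14 days and -0.04 at 28 days.

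Other immediate early genes had a median of 0.50 at 14 days and 0.06 at 28 days over 25 genes, all of them tested. At an unadjusted p under 0.05 there were 6 higher and 0 lower at 14 days, and 3 higher and 1 lower at 28 days. Myc, a driver of growth, had 18.9, 23.1 and 34.6 CPM at 14 days, 10.4, 20.6 and 12 CPM at 28 days, and 8.95, 6.29 and 5.87 CPM in sham. Like Junb and Egr2, it was above sham in every Ang II library (log2 1.86 ± 0.35 and 1.03 ± 0.35, edgeR adjusted p = 0.117 and 0.254). Zfp36, which encodes tristetraprolin, a protein that speeds decay of cytokine and immediate early transcripts, averaged 116 ± 29.1 CPM at 14 days, 78.5 ± 21.8 CPM at 28 days and 52.3 ± 10.9 CPM in sham. It did not overlap sham at 14 days (log2 1.15 ± 0.29, edgeR adjusted p = 0.117). Dusp1, the nuclear phosphatase that is a standard early target of the same kinases, had 86.1 ± 14.4 CPM at 14 days, 80 ± 16.8 CPM at 28 days and 108 ± 51.3 CPM in sham, and its groups overlapped.

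Further genes of that list were picked after their values were seen. Ier5, a relative of Ier2, averaged 64.5 ± 21.3 CPM at 14 days, 49.3 ± 12.9 CPM at 28 days and 23.1 ± 1.93 CPM in sham, without overlap (DESeq2 adjusted p = 0.000404 and 0.021, edgeR adjusted p = 0.117 and 0.217). Socs3, a feedback inhibitor of cytokine receptors, reached 123 CPM in 14-day replicate 2, and was at 15.4 to 42.1 CPM in the other Ang II libraries and 5.01 to 14.7 CPM in sham. Npas4, an activity-dependent factor best known in neurons, was lower than sham at 28 days, with 11.7, 6.66 and 4.18 CPM against 39.2, 17.7 and 31.9 CPM (log2 -1.98 ± 0.61, edgeR adjusted p = 0.234, DESeq2 adjusted p = 0.0266). Fosb and Npas4 were the only genes of the 10 and of this list with a 28-day value below -1.5.

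Among the Krüppel-like factors, Klf2, a flow-responsive factor of endothelium that lymphocytes also express, had 70, 85 and 283 CPM at 14 days, 134, 193 and 77.8 CPM at 28 days, and 35.7, 91.4 and 131 CPM in sham. Its highest libraries were the same 2 as for Egr3. Btg2, an antiproliferative gene, was also highest in them, with 138 CPM in 14-day replicate 3 and 103 CPM in 28-day replicate 2, where the other 7 libraries had 41.6 to 61 CPM. The part of lymphocyte transcripts in the Klf2 and Btg2 values was not tested. Klf4 and Klf6 had log2 fold changes of -0.22 ± 0.44 and 0.05 ± 0.17 at 14 days. Ccn1 and Ccn2, matricellular genes of mechanically loaded cells, had 0.89 ± 0.43 and 0.27 ± 0.56 at 14 days and -0.03 ± 0.42 and -1.14 ± 0.57 at 28 days. Ccn1 did not overlap sham at 14 days. Rhob, a small GTPase, had -0.29 ± 0.20 at 14 days and -0.44 ± 0.20 at 28 days, when its libraries (239, 167 and 214 CPM) were all below those of sham (277, 251 and 312 CPM). Ier3, a survival gene, had 0.86 ± 0.42 at 14 days and -0.43 ± 0.42 at 28 days.

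**Figure D5:**
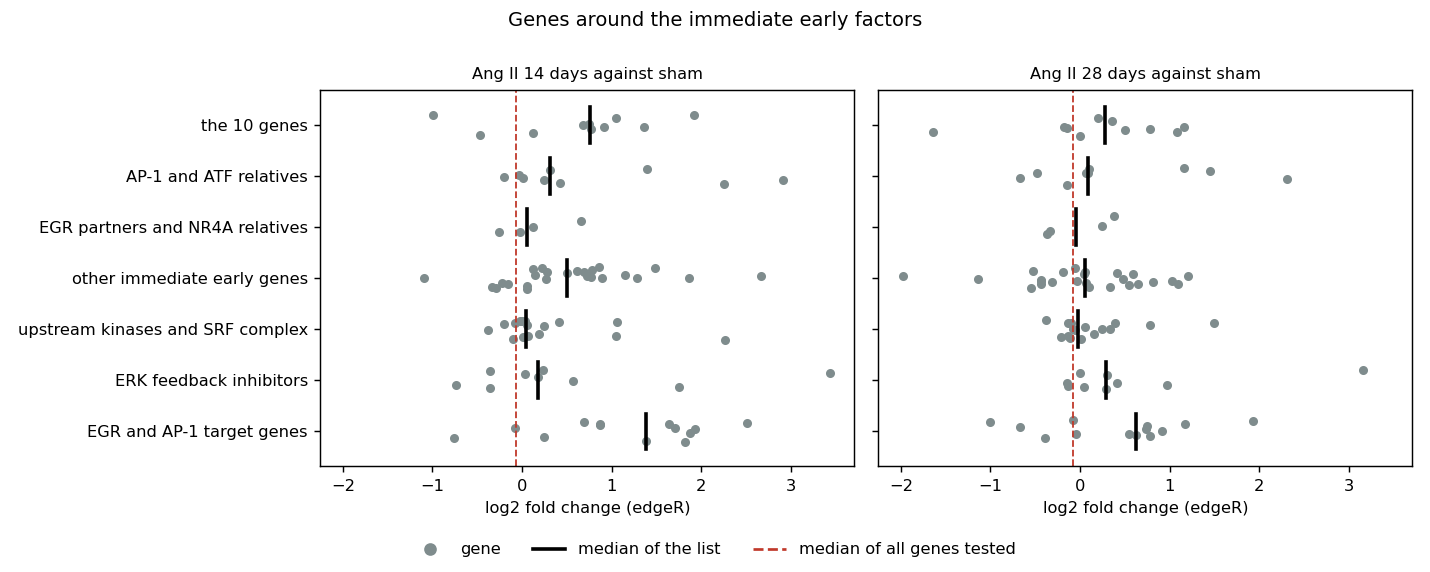
Log2 fold changes from edgeR of the 10 genes and of 6 lists of related genes at 14 days (left) and 28 days (right) against sham. Each point is a gene, black bars are list medians, and the dashed line is the median of all genes tested. The medians of the 10 genes are 0.76 and 0.28 with all 9 libraries (0.49 and -0.02 without sham replicate 1, 1.17 and 0.75 without sham replicate 3), and those of the target list 1.38 and 0.62.

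The transcripts of the kinases and the SRF complex that drive these genes had medians of 0.05 at 14 days and -0.03 at 28 days over 16 genes, with some members well above sham. Rps6ka1, which encodes RSK1, a kinase activated by ERK, had 27, 82.6 and 71.6 CPM at 14 days, 24.2, 48.2 and 34.4 CPM at 28 days, and 13.6, 11.2 and 12.8 CPM in sham. Its groups did not overlap (log2 2.27 ± 0.43 and 1.5 ± 0.42, edgeR adjusted p = 0.117 and 0.217, DESeq2 adjusted p = 8.39e-05 and 0.0211). Mrtfa, a co-activator of SRF, had 79.9 ± 26.2 CPM at 14 days against 38.3 ± 10.8 CPM in sham, with overlap (log2 1.06 ± 0.32, edgeR adjusted p = 0.128, DESeq2 adjusted p = 0.0196). Both were picked after their values were seen. Srf had 73.1 ± 16.3 CPM at 14 days, 66.4 ± 14 CPM at 28 days and 72.5 ± 19 CPM in sham. Mapk3, which encodes an ERK, had a log2 fold change of -0.02 ± 0.41 at 14 days, and Map2k2, which encodes a kinase of ERK, had 0.03 ± 0.20. Transcript levels do not measure the activity of these kinases. Elk3, an SRF partner picked after its values were seen, had 95.9 ± 34.1 CPM at 14 days and 79.6 ± 4.04 CPM at 28 days, against 46.3 ± 2.5 CPM in sham, without overlap (log2 1.05 ± 0.23 and 0.78 ± 0.23, edgeR adjusted p = 0.117 and 0.223). In all, 3 genes of this list were higher and 0 lower at an unadjusted p under 0.05 at 14 days, and 1 was lower and 2 were higher at 28 days.

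Feedback inhibitors of ERK signalling had medians of 0.18 at 14 days and 0.29 at 28 days over 9 genes. At an unadjusted p under 0.05, 2 were higher and 0 lower at 14 days, and 1 was higher and 0 lower at 28 days. Dusp6, the ERK phosphatase often read as a gauge of pathway output, had 0.18 ± 0.50 and 0.00 ± 0.50, and Spred1 and Spred2, membrane-bound inhibitors of RAF activation, had 0.57 ± 0.32 and -0.36 ± 0.23 at 14 days. Dusp2, a phosphatase of activated leukocytes that was picked after its values were seen, had 4.9, 9.58 and 27.2 CPM at 14 days, 3.5, 24.7 and 6.07 CPM at 28 days, and 1.17, 1.65 and 0.979 CPM in sham. Its highest libraries were again 14-day replicate 3 and 28-day replicate 2, and the part of lymphocyte transcripts in them was not tested. Dusp5, also picked after its values were seen, had 6.93 ± 3.12 CPM at 14 days and 4.02 ± 1.74 CPM at 28 days. Sham had 2.05 ± 0.683 CPM, without overlap (log2 1.75 ± 0.49 and 0.97 ± 0.48, edgeR adjusted p = 0.119 and 0.448, DESeq2 adjusted p = 0.0153 and 0.403).

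Genes described as targets of EGR and AP-1 factors had the highest medians of the 6 lists, 1.38 at 14 days and 0.62 at 28 days over the 13 of 14 tested. These medians were not recomputed with single libraries left out. The mean log2 CPM of the 14 was 5.27, 5.92 and 4.95 at 14 days, 5.02, 4.57 and 4.85 at 28 days, and 4.67, 3.78 and 4.58 in sham. On this mean, 28-day replicate 2 lay below sham replicates 1 and 3. At an unadjusted p under 0.05 there were 8 higher and 1 lower at 14 days, where 13.1% of all genes were higher and 10.4% lower. At 28 days there were 2 higher and 1 lower, where 7.96% of all genes were higher and 5.89% lower. Tnc, which encodes the matrix protein tenascin C, had log2 fold changes of 0.87 ± 0.32 at 14 days and -0.39 ± 0.32 at 28 days. Vegfa, an endothelial growth factor, had -0.76 ± 0.28 and -0.08 ± 0.28. Several genes of this list are also expressed by macrophages or fibroblasts, whose markers differed between the libraries, and the part of that difference in these values was not tested.

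The genes whose profile over the 9 libraries lay nearest to the mean profile of the 10 were not immediate early genes. Mob1a, a regulator of the Hippo kinases LATS, and the uncharacterised BC005537 were nearest, with a root mean square distance of 0.32 between standardised log2 CPM profiles, where the median over 10734 candidates was 1.48. Then followed Cmtm6 (0.41), Rrm1 (0.43), Tmem39b (0.46), Eif2ak3 (0.46), Tspan14 (0.46) and Nifk (0.48). Of the 10 themselves, Egr1 (0.46), Ier2 (0.54), Egr2 (0.57) and Fos (0.58) were nearest to their common mean and Fosb (1.24) and Egr3 (1.07) farthest. Mob1a had 60.5, 84.9 and 78.4 CPM at 14 days, 62.3, 69.2 and 63.5 CPM at 28 days, and 35.7, 47.6 and 70.3 CPM in sham, with sham replicate 1 again lowest and 14-day replicate 2 highest. Distances over 9 libraries that share these extremes are a description only.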

How the data were processed

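The authors deposited 1 table of expected counts per gene for each of the 9 libraries, per the file headers. Per the labels, RNA was extracted with TRIzol and 1.0 ug of total RNA went into MGIEasy mRNA libraries. The build GRCm38.p6 and the tools RSEM 1.3.1, Bowtie2 2.4.5 and HISAT2 2.2.1 are listed, per the submitters' processing notes. Strandedness is not given in the sources used here. Expected counts share out ambiguous reads, so 9.77% to 11% of genes per library were not whole. They were rounded. Of 18830 genes, 18775 were matched to a symbol and 14741 passed filterByExpr, all 10 members among them. RefSeq has 1 gene that overlaps a member, Gm32255 at Egr2, and it is not counted in the files.

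edgeR 4.0.16 (TMM, robust quasi-likelihood, 1 coefficient per group over 9 libraries, in R 4.3.3) was used with Benjamini-Hochberg adjustment over all genes tested. The SE is the log2 fold change over the square root of F. The common biological coefficient of variation was 51.3%. DESeq2 1.42.0, limma-voom (limma 3.58.1), other scalings and filters, the compared groups alone, the replicate number as a block and each library left out were alternatives. log2 CPM used a prior count of 2. The planned FPKM was replaced by CPM per kb of exon (GENCODE M21). The fit was tested on simulated data. The labels do not say that libraries are separate animals. The p-values set differences between groups against the spread between these libraries, and whether they speak for separate mice is not known. Exact permutation of 3 against 3 cannot go below p = 0.1 and was not used. The members and lists were chosen with earlier results of these data known. Named were all 10 members, their relatives, a fixed set of early genes, up to 3 of the most abundant genes of each list (some are not reported here) and the 8 genes of nearest profile with at least 10 CPM.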

Additional observations from a re-analysis of the deposited data

How the results depend on the processing

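edgeR called 0 genes in each comparison, with 3460 genes at an unadjusted p under 0.05 at 14 days, 2042 at 28 days and 903 between the times, while DESeq2 called 1970, 970 and 118 genes and limma-voom 0. Of the 10 genes, DESeq2 called 2 at 14 days (log2 1.96 for Junb and 1.38 for Egr2) and 0 in the other comparisons. DESeq2 without 14-day replicate 2, chosen after seeing the data, called 879, 1469 and 120 genes and 1 of the 10, Junb (1.28). The compared groups alone gave 1 gene at 14 days. The replicate number as a block also gave 1, and 0 of the 10 genes. Same-numbered libraries did not deviate together (3 of 9 correlations over 0.1, range -0.55 to 0.65), so the numbers were not taken as pairs. With 1 library left out, edgeR called 0 genes at 14 days and between the times and 0 to 7 at 28 days (5 without sham replicate 2, 7 without 28-day replicate 3), and 0 of the 10 genes throughout. Of 570 log2 fold changes recomputed for the 10 genes, 27 changed sign and 3 passed the threshold. Atf3 at 28 days against sham, with a main value of 0, gave 7 of the sign changes. The 570 include fits without a library of the group not compared, so these counts do not measure how stable the signs are. With 1 library left out, at 28 days against sham Fos ran from -0.19 to 0.75, Jun from -0.24 to 0.04, Egr1 from 0 to 0.75, Atf3 from -0.08 to 0.13 and Nr4a1 from -0.72 to 0.68. Nr4a1 ran from -1 to 0.4 at 14 days. Between the times Fos ran from -0.83 to 0.06, Egr2 from -0.53 to 0.06 and Egr3 from -0.81 to 0.86. Nr4a1 was 0.19 (14 days) and 0.54 (28 days) with limma-voom, and 0.19 with the block at 28 days. Atf3 at 28 days was 0 with DESeq2, RLE factors or the groups alone, and 0.02 with a filter of 5 CPM in 3 libraries. Between the times, Egr3 was -1.1 without the 3 nerve-rich libraries (also chosen after seeing the data), and DESeq2 without 14-day replicate 2 gave Fos 0.05, Egr2 0.05, Egr3 -0.18 and Nr4a1 -0.01. The causes were not tested. The order of libraries by deposited FPKM was planned and not run, since the tables used here hold expected counts. A prior count of 0.5 moved the median SD of the 10 genes to 0.655. The precision is limited by 3 libraries a group and the spread between them.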
